A study of Mus musculus with 12 samples.

Results

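Change in the bleomycin-injured mouse lung from day 14 to day 21 was read from the 4 lungs of vehicle-treated mice collected at day 21 against the 4 lungs collected at day 14. These 8 of the series' 12 libraries were chosen by their titles, and the comparison covers the 17909 genes that passed a filter on low counts, of 55487 genes in the table. Every animal was a male of the C57BL/6J strain, wild type and 10 weeks old, and had been given oropharyngeal bleomycin (0.0125 U each, near 0.5 U/kg). The day 14 mice had no further treatment. The vehicle mice are labelled as given intravenous saline, and the labels' protocol describes the vehicle as phosphate-buffered saline. The dosing schedule of 5 daily injections from day 14 to day 18 is stated for the nanoparticles, which the other 4 mice received. Time and the saline injections therefore cannot be told apart, and no uninjured lungs were among the samples. RNA came from all 5 lobes, cut free of the large airway and trachea, so each library is 1 whole lung.

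Bleomycin is a chemotherapy drug that breaks DNA. A single dose to the mouse lung kills alveolar cells and draws in inflammatory cells. Fibroblasts then divide and lay down collagen, epithelial cells pass through a keratin-rich transitional state, and macrophages clear debris through their lysosomes. In this model the scar is known to peak some weeks after injury and then to regress in part. Bulk RNA cannot tell fewer cells of a type from less RNA per cell, and this holds for every gene below.

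Total expected counts were 25706260 to 42714693 in the day 14 libraries and 28001006 to 36208498 in the vehicle libraries, and 3 counts corresponded to 0.0718 to 0.113 CPM, the counts of a gene scaled to a library total common to all samples. On the first principal component, which held 25.8% of the variance, the day 14 libraries lay between −32.8 and −18.1 and the vehicle libraries between 6.59 and 21.4. The lung label held in both groups. Sftpc, the surfactant protein C gene of alveolar type 2 cells, stood at 10500 to 12800 CPM at day 14 and at 12400 to 14700 CPM in vehicle lungs. Markers of thymus (Rag1 and Dntt) summed to at most 1.01 CPM in any of the 8 libraries. Red-cell markers (Hbb-bs, Hba-a1 and Alas2) summed to 330 to 896 CPM at day 14 and 129 to 350 CPM in vehicle lungs, and 0 of the 3 was called. The p-values set the difference between groups against the spread between mice within groups. That spread was estimated over all 12 libraries, the 4 of nanoparticle mice among them.

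Falls outnumbered rises over the week. In edgeR's quasi-likelihood test, with a Benjamini-Hochberg adjusted p under 0.05 as the threshold for a call, 679 genes were higher and 1166 were lower in vehicle lungs, 3.79% and 6.51% of the genes tested and 10.3% in both directions together. The counts of called list members below are to be read beside these shares of all genes. Most calls were small, with a median absolute log2 fold change of 0.40. A rise above 1 on the log2 scale was called for 45 genes and a fall below −1 for 175 genes. The groups did not overlap for 1661 of the called genes, against 3200 of all tested genes (17.9%). When each of the 8 libraries was left out in turn, 603 genes were called every time, 176 of them higher and 427 lower. A call said below to end, or be lost, without a mouse had an adjusted p of at least 0.05 with that library left out.

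**Figure D1:**
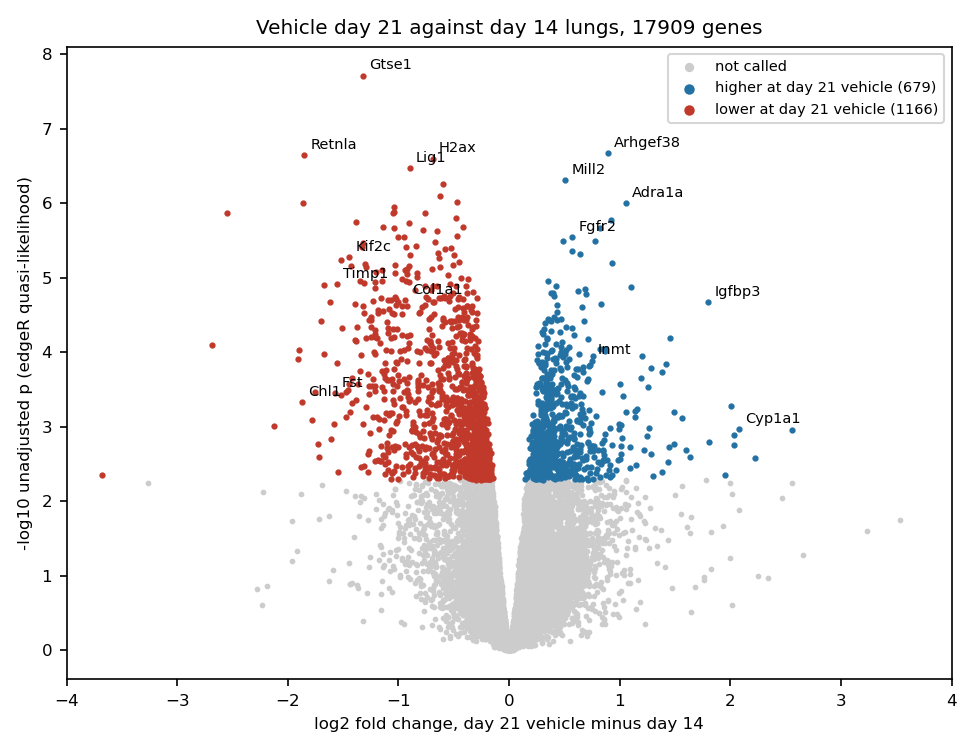
Log2 fold change of each gene (day 21 vehicle minus day 14, x axis) against −log10 of its unadjusted p in edgeR (y axis), with genes called higher in blue, called lower in red and others in grey. There are 1166 red and 679 blue points, and Gtse1 and Retnla stand at the top on the left.

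The largest rise that met every condition of the naming rule was that of Igfbp3, a secreted binding protein of insulin-like growth factors (chromosome 11, 7206086 to 7213923, minus strand). It stood at 10.8, 15.1, 14.0 and 15.1 CPM in day 14 mice 1 to 4 and at 63.5, 33.5, 46.9 and 46.7 CPM in vehicle mice 1 to 4. Every vehicle lung was above every day 14 lung, and the rise was 1.80 on the log2 scale (SE 0.255, adjusted p = 0.00315). Adra1a, the alpha-1A adrenergic receptor, stood at 5.77, 4.52, 4.40 and 5.03 CPM at day 14 and at 11.1, 9.67, 9.57 and 10.9 CPM in vehicle lungs. The groups were well apart and the rise was 1.06 (SE 0.13, adjusted p = 0.00151). Arhgef38, a guanine nucleotide exchange factor and the rise of smallest p, went from 30.8, 24.4, 27.9 and 34.5 CPM to 59.0, 53.5, 54.1 and 51.7 CPM. Its log2 fold change was 0.89 (SE 0.10, adjusted p = 0.00113). Mill2, a relative of the class I histocompatibility genes, was the next by p and rose by 0.51 (SE 0.06, adjusted p = 0.00139). Its 4 day 14 values lay between 29.3 and 31.4 CPM and its 4 vehicle values between 41.3 and 45.1 CPM.

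Others among the 15 largest rises the rule names were those of Tmem121b (1.42), the non-coding Lncppara (1.00), Phf24 (0.93), Faim2, an inhibitor of Fas-induced cell death (0.87), Shisal1 (0.83), Gprin3 (0.83), the acyl-CoA oxidase relative Acoxl (0.82), the neurexin Nrxn2 (0.72) and the ubiquitin ligase Rnf144a (0.72). Ear1, an eosinophil-associated ribonuclease that alveolar macrophages also express, rose by 0.76 (SE 0.14, adjusted p = 0.0066). Ear1 belongs to a family of near-identical genes, so its share of reads is uncertain.

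Among the falls, Retnla, a small secreted protein of macrophages and epithelium in type 2 responses, stood at 208, 225, 271 and 163 CPM at day 14 and at 46.0, 76.1, 54.1 and 64.0 CPM in vehicle lungs. The lowest day 14 lung was above the highest vehicle lung, and the fall was to a level 3.61-fold lower (log2 fold change −1.85, SE 0.18, adjusted p = 0.00113). Chl1, a cell adhesion molecule of the L1 family (chromosome 6, 103510586 to 103750211), went from 11.2, 15.6, 17.8 and 10.0 CPM to 2.61, 4.97, 3.11 and 4.10 CPM. That fall was the largest by fold of those the rule names, at −1.88 (SE 0.39, adjusted p = 0.0136). Rasd1, a Ras-related protein induced by glucocorticoids, fell by 1.67 on the log2 scale (SE 0.31, adjusted p = 0.00641), from 2.50 to 6.59 CPM at day 14 to 1.15 to 1.39 CPM. The other 12 of the 15 largest falls were cell division genes or the genes Fst, Timp1 and Etv4, described with their pathways below.

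Genes of dividing cells made up the deepest fall. Of 67 tested genes of mitosis, 63 were called lower and 0 higher, with a median log2 fold change of −1.07 beside 0.0031 over all genes tested. The call held in all 8 leave-one-out fits for 49 of the 63. Cdk1, the kinase that drives entry into mitosis, stood at 18.6, 17.6, 16.2 and 14.4 CPM at day 14 and at 4.44, 9.01, 5.77 and 6.26 CPM in vehicle lungs. Vehicle mouse 2 was the highest of its group and still below every day 14 lung, and the fall was 1.39 on the log2 scale (log2 fold change −1.39, SE 0.22, adjusted p = 0.00325). Kif2c, a kinesin that removes tubulin from microtubule ends at centromeres, went from 6.11, 5.43, 7.27 and 5.25 CPM to 1.59, 2.74, 1.92 and 2.55 CPM, a log2 fold change of −1.45 (SE 0.20, adjusted p = 0.0021).

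Gtse1, a microtubule-associated protein of G2 and mitosis, had the smallest p of all the falls the rule names. Its values were 6.87, 7.43, 9.09 and 7.42 CPM at day 14 and 2.75, 3.41, 3.19 and 2.92 CPM in vehicle lungs, a log2 fold change of −1.32 (SE 0.12, adjusted p = 0.000348). Other genes of the list fell to a like degree: the ubiquitin-conjugating enzyme Ube2c (−1.43), the kinase Pbk (−1.40), the kinesin Kif20a (−1.39), the spindle protein Ckap2 (−1.38) and the topoisomerase Top2a (−1.24). Pimreg (−1.46) and the scaffold Iqgap3 (−1.42), which are not in the list, fell as well. Mki67, whose protein coats mitotic chromosomes, was nearly constant within day 14 at 100 to 102 CPM and ranged from 33.3 to 57.7 CPM in vehicle lungs. Spread among the vehicle mice was wider than among the day 14 mice for Mki67, Cdk1 and Ckap2, with vehicle mouse 1 lowest and vehicle mouse 2 highest in each.

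Of 48 tested DNA replication genes 39 were called lower and 0 higher, with a median of −0.62, and all 48 fold changes were negative. Uhrf1, which carries DNA methylation over to new strands, stood at 23.8, 21.7, 23.4 and 21.1 CPM at day 14 and at 6.66, 10.5, 10.1 and 9.15 CPM in vehicle lungs. The groups did not overlap, and the log2 fold change was −1.31 (SE 0.18, adjusted p = 0.00231). Lig1, the ligase that joins Okazaki fragments, went from 27.2, 25.4, 25.8 and 21.8 CPM to 11.8, 12.8, 13.8 and 15.3 CPM (−0.90, SE 0.10, adjusted p = 0.00121). The checkpoint adaptor Clspn (−1.15) and the polymerase subunit Pole (−1.14) were the other largest falls of the list.

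Of 27 genes that control entry into the cycle, 12 were called lower and 1 higher. The falls were led by cyclin E1, Ccne1 (−1.34), by the repressor E2f7 (−1.06) and by Mybl2, a subunit of the complexes that switch on mitotic genes (−1.04). The inhibitors of cyclin-dependent kinases moved in opposite directions. Cdkn1a, the p21 inhibitor induced by p53, stood at 224, 176, 231 and 192 CPM at day 14 and at 107, 131, 124 and 141 CPM in vehicle lungs (−0.71, SE 0.13, adjusted p = 0.00618). Cdkn1b, the p27 inhibitor of resting cells, stood at 77.6, 74.0, 70.8 and 77.9 CPM and then at 103, 100, 108 and 88.1 CPM (0.41, SE 0.06, adjusted p = 0.0031). Neither gene's groups overlapped. Histone and nuclear envelope genes also fell: H2ax, the histone variant phosphorylated at DNA breaks, by 0.69 on the log2 scale, Lmnb1, lamin B1, by 0.59 and Hist1h2ap by 1.39. Hist1h2ap is 1 of many near-identical histone genes, so its reads may be shared with others.

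**Figure D2:**
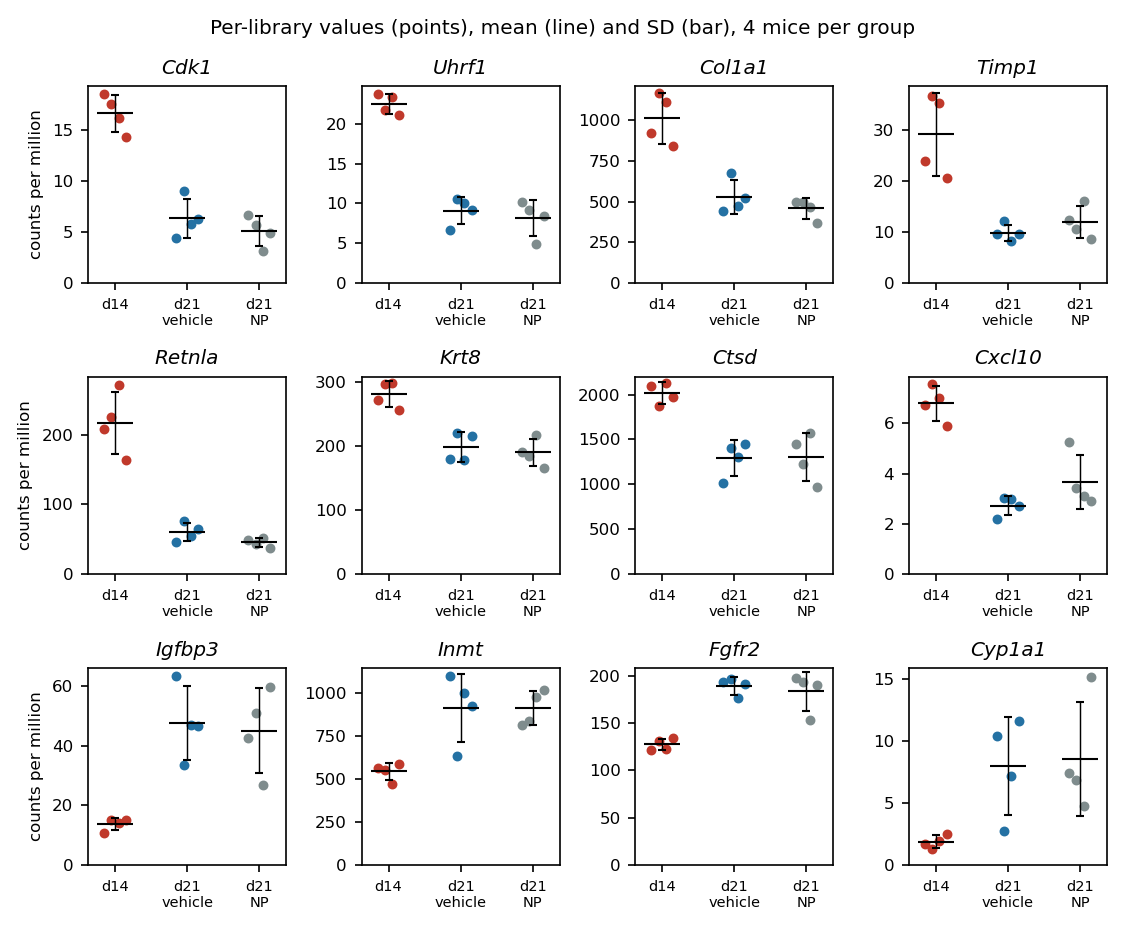
CPM (y axis, from 0) of 12 genes in each library, with the mean as a line and the SD as a bar, for day 14 (red), day 21 vehicle (blue) and day 21 nanoparticle (grey) mice, 4 per group. The vehicle points lie wholly below the day 14 points for the first 8 genes and wholly above them for Igfbp3, Inmt, Fgfr2 and Cyp1a1.

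The promoters of the falling division genes were compared by sequence. Mitotic genes are known to be switched on through a cell cycle homology region, often with CCAAT boxes before it, and replication genes through E2F sites. Promoters of 250 bases before to 50 after the start site were taken from RefSeq (GRCm38.p6) for 12637 of the tested genes, and both strands were searched. The letters TTTGAA occurred in 40 of the 55 mitosis promoters matched (72.7%) and in 12.8% of all promoters. CCAAT occurred in 39 of 55 (70.9%) against 38.1% of all. TTTGAA and CCAAT together were found in 33 of the 55 (60%) and in 5.20% of all. TTCGAA, another form of the element, occurred in 4 of the 55 (7.27%) and in 2.03% of all. TTTGAA and CCAAT can share at most 1 letter, and neither was used to choose the list. Of the 40 genes with TTTGAA 39 were called lower, and 52 of all 55 matched genes were. A match describes the letters only and says nothing of what binds there.

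The promoters of 4 mitosis genes among the largest falls, each called in all 8 leave-one-out fits, are shown from 150 bases before to 29 after the start, with TTTGAA or CCAAT on either strand in capitals (TTCAAA and ATTGG are the opposite strand).
Kif2c (chr4:117178743-117178922, minus strand): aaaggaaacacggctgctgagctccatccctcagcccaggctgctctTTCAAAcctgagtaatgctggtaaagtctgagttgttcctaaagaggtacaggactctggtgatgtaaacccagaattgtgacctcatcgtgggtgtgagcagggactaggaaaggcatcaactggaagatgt
Ube2c (chr2:164769779-164769958, plus strand): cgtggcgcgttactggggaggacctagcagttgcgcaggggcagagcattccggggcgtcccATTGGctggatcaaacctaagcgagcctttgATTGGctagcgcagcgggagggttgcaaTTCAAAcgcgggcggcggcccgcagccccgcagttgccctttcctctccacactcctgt
Cdk1 (chr10:69352883-69353062, minus strand): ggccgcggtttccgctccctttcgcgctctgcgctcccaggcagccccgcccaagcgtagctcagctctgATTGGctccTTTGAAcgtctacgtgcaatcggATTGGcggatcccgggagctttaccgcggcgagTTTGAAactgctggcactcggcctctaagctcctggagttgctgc
Ckap2 (chr8:22185790-22185969, minus strand): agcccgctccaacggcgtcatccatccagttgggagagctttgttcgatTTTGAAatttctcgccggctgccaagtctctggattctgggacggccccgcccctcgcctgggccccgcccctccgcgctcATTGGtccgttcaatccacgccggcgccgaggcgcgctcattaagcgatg
Cdk1 held TTTGAA at 71 and at 15 bases before the start and CCAAT boxes at 80 and at 48 bases before it. Ube2c held TTTGAA at 29 bases and CCAAT boxes at 88 and 57 bases before the start. In Ckap2 TTTGAA lay at 101 bases before the start, and 1 CCAAT box at 20. The RefSeq start of Kif2c lies inside its GENCODE M21 gene model (117159639 to 117182639 on chromosome 4), and its window held TTTGAA at 103 bases before that start and no CCAAT box in the stretch shown.

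In the mitosis promoters the element lay close to the start site. TTTGAA began in the first 50 bases after the start in 41.8% of mitosis promoters and 1.44% of all, and in the 50 bases before it in 23.6% and 1.61%. Between 250 and 201 bases before the start the shares were 5.45% and 3.52%.

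**Figure D3:**
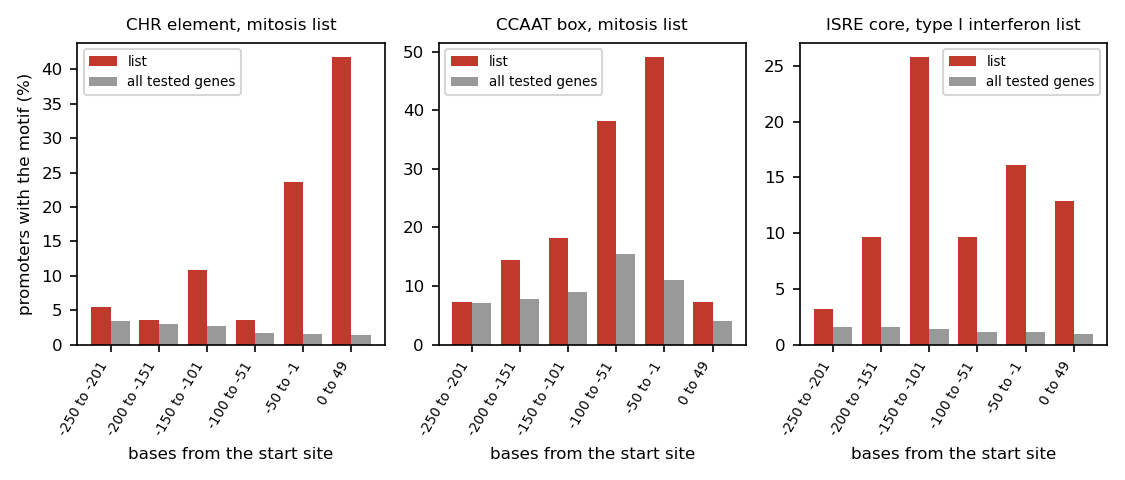
Share of promoters (y axis, percent) in which a motif begins in each window of 50 bases around the RefSeq start site (x axis), for a gene list in red and for all 12637 promoters of tested genes in grey. The cell cycle element of the mitosis list is concentrated from 50 bases before the start onward, its CCAAT box from 100 bases before to the start, and the interferon element of the type I interferon list lies mainly from 150 bases before the start onward.

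E2F sites, searched as GGCGGGAA or TTTGGCGC on both strands and counted once per promoter, occurred in 13 of 38 replication promoters (34.2%) and in 4.65% of all promoters. Uhrf1, the replication gene of largest fall, holds 1 in the stretch from 150 before to 29 after the start, in capitals.
Uhrf1 (chr17:56303187-56303366, plus strand): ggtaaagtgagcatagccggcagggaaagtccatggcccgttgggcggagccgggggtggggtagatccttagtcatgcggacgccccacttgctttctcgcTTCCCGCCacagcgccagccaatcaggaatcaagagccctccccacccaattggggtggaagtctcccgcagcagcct

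Part of the collagens, collagen-maturing enzymes and matrix glycoproteins was called lower in vehicle lungs. Of 26 tested collagens, a list of the fibril-forming ones with network, beaded-filament and membrane collagens, 8 were called lower and 2 higher, with a median of −0.32. Col1a1, a chain of type I collagen, stood at 920, 1170, 1110 and 844 CPM at day 14 and at 444, 676, 474 and 520 CPM in vehicle lungs. Its groups did not overlap and the log2 fold change was −0.94 (SE 0.15, adjusted p = 0.00313). The partner chain Col1a2 fell by 0.69 on the log2 scale and Col5a2, which nucleates fibrils, by 0.59, and both calls held in all 8 leave-one-out fits. Col3a1 stood at 1610, 2030, 2110 and 1810 CPM and then at 1060, 1580, 1160 and 1360 CPM (−0.55, SE 0.15, adjusted p = 0.0366). Its call ended without any 1 of day 14 mice 2, 3 and 4 or vehicle mice 1, 3 and 4. Both rises were of collagens outside the fibril-forming group. Col13a1, a membrane collagen of alveolar fibroblasts, rose by 0.33 (SE 0.06, adjusted p = 0.00629), and Col8a2 rose by 0.35 with a call that ended without day 14 mouse 1 or 3 or vehicle mouse 1, 3 or 4.

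Of 32 genes for collagen maturation, 14 were called lower and 2 higher. Lox, the enzyme that crosslinks collagen, went from 133, 110, 156 and 126 CPM to 84.4, 94.8, 87.1 and 91.4 CPM (−0.56, SE 0.11, adjusted p = 0.00881). Loxl2 of the same family fell by 0.49 and lost its call without day 14 mouse 3. Colgalt2, which adds galactose to collagen, rose by 0.59 (SE 0.12, adjusted p = 0.00912), against the direction of most of the list. The other rise, of Pcolce2, an enhancer of procollagen cleavage (0.51), ended without any 1 of day 14 mice 1 to 3 or vehicle mice 1, 3 and 4.

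Among 55 matrix glycoproteins 17 were called lower and 3 higher, with a median of −0.35. Fn1, fibronectin, stood at 2350, 2090, 2890 and 2190 CPM at day 14 and at 931, 1490, 1180 and 1420 CPM in vehicle lungs (−0.92, SE 0.17, adjusted p = 0.00727). Ccn2, a matrix protein induced by TGF-beta, went from 415, 276, 367 and 238 CPM to 172, 121, 202 and 135 CPM (−1.04, SE 0.22, adjusted p = 0.0139). Both genes' groups were apart. Mfap4, a microfibril protein, fell by 0.63 on the log2 scale (SE 0.09, adjusted p = 0.00213). Of the 3 rises, Ogn (0.47), Ltbp4 (0.38) and Prelp (0.30) are small proteoglycans or a binding protein of latent TGF-beta, and each lost its call without at least 1 of day 14 mice 1 to 3 and vehicle mice 1, 3 and 4.

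Of 41 matrix proteases and inhibitors 11 were called lower and 1 higher. Timp1, an inhibitor of metalloproteinases on chromosome X, stood at 24.0, 36.7, 35.4 and 20.6 CPM at day 14 and at 9.59, 12.1, 8.28 and 9.61 CPM in vehicle lungs (−1.56, SE 0.22, adjusted p = 0.00275). Serpina3n, an inhibitor of serine proteases, fell by 1.05 on the log2 scale. The single rise, of Adam19 (0.24), ended without day 14 mouse 1 or 3 or vehicle mouse 2, 3 or 4. Integrin alpha 5, Itga5, the partner of fibronectin, fell by 0.52 (SE 0.07, adjusted p = 0.00186), and integrin alpha 8, Itga8, of alveolar fibroblasts rose by 0.57 (SE 0.13, adjusted p = 0.0147).

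Among 22 alveolar fibroblast genes 4 were called higher (18.2%, against 3.79% of all genes) and 1 lower (4.55%, against 6.51%), with a median of 0.20. Among 25 scar fibroblast genes 8 were called lower (32%) and 0 higher. Inmt, a methyltransferase of resting lung fibroblasts, stood at 563, 550, 474 and 590 CPM at day 14 and at 1100, 635, 999 and 922 CPM in vehicle lungs. Vehicle mouse 2 was the lowest of its group and just above the highest day 14 mouse (0.75, SE 0.14, adjusted p = 0.0072). Limch1 (0.30), named because so few members rose, and Bmp3 (0.51) rose with calls that ended without day 14 mouse 1 or 3 or vehicle mouse 1, and Limch1 also without vehicle mouse 3 or 4. The single fall was of Mfap4. Acta2, smooth muscle actin, stood at 106, 177, 149 and 115 CPM at day 14 and at 132, 131, 121 and 120 CPM in vehicle lungs (−0.12, SE 0.13, adjusted p = 0.597). Of 22 contractile genes 3 were called higher (13.6%, against 3.79% of all genes), which were Itga8, Mylk (0.30) and Synpo2 (0.33). Actn1 was called lower (−0.39), and the median of the list was −0.03. Synpo2 lost its call without day 14 mouse 1 or 3 or vehicle mouse 1, 3 or 4, and Actn1 without day 14 mouse 3 or vehicle mouse 1.

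In the TGF-beta and activin family 5 of 34 were called lower (14.7%, against 6.51% of all genes) and 2 higher (5.88%, against 3.79%). Inhba, the chain of activin A, stood at 10.6, 9.99, 12.7 and 7.42 CPM at day 14 and at 4.34, 5.45, 3.85 and 3.92 CPM in vehicle lungs (−1.22, SE 0.21, adjusted p = 0.00449). Fst, follistatin, which binds and blocks activin, went from 15.5, 12.5, 15.7 and 9.16 CPM to 4.05, 5.09, 4.70 and 3.92 CPM (−1.57, SE 0.32, adjusted p = 0.0116). The ligand and its inhibitor thus both fell. The related Fstl1 (−0.55) and Fstl3 (−0.31) also fell, Fstl3 with a call that ended without day 14 mouse 1 or 3 or vehicle mouse 1, 2 or 3. Tgfb1 itself fell by 0.24 (SE 0.06, adjusted p = 0.0221), a call that ended without day 14 mouse 3 or vehicle mouse 1, 2 or 3. The type II activin receptor Acvr2b went from 6.44, 4.71, 5.92 and 6.26 CPM to 9.73, 7.71, 8.85 and 8.21 CPM (0.56, SE 0.12, adjusted p = 0.0122). Tgfbr3, the co-receptor betaglycan, rose by 0.37 and lost its call without day 14 mouse 3 or vehicle mouse 1 or 3.

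In the BMP family 4 of 33 were called higher (12.1%, against 3.79% of all genes) and 2 lower (6.06%, against 6.51%). Bmp6, a ligand, stood at 91.9, 99.5, 92.2 and 113 CPM at day 14 and at 192, 126, 150 and 166 CPM in vehicle lungs (0.68, SE 0.11, adjusted p = 0.00386), with no overlap. Bmp3, the antagonist Chrdl1 (0.86) and the effector Smad9 (0.61) also rose, and Chrdl1 and Smad9 lost their calls without any 1 of day 14 mice 1 to 3 or vehicle mouse 1 or 3, and Smad9 also without vehicle mouse 4. Noggin, Nog, a BMP antagonist, fell by 1.26 from low levels of 0.652 to 1.49 CPM to 0.385 to 0.542 CPM, and the call ended without day 14 mouse 3 or vehicle mouse 1, 3 or 4. Bmp1, a protease despite its name, fell by 0.33 with a call that held only without vehicle mouse 2 among the leave-one-out fits.

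Fgfr1 and Fgfr2, receptors of fibroblast growth factors, moved in opposite directions. Fgfr2, the receptor of lung epithelium, stood at 122, 131, 123 and 134 CPM at day 14 and at 193, 197, 176 and 191 CPM in vehicle lungs (0.57, SE 0.08, adjusted p = 0.00172). Fgfr1, the main receptor of mesenchyme, went from 97.6, 110, 111 and 102 CPM to 87.1, 83.5, 87.1 and 86.8 CPM (−0.29, SE 0.05, adjusted p = 0.00697). Neither gene's groups overlapped. With Igfbp3, Met, the hepatocyte growth factor receptor (0.30), was the other rise in the list of 29 IGF, PDGF and FGF genes, and Igfbp4 (−0.38), Igfbp7 (−0.28) and Fgf2 (−0.40) were the other falls. Igfbp4 lost its call without day 14 mouse 3 or vehicle mouse 1. Met, Igfbp7 and Fgf2 lost theirs without each of these and also day 14 mouse 1 or vehicle mouse 3, and 1 or more of them without day 14 mouse 2 or 4 or vehicle mouse 2 or 4. Igf1, insulin-like growth factor 1, stood at 90.8 to 112 CPM and then at 57.2 to 96.0 CPM and was not called (−0.55, SE 0.16, adjusted p = 0.0528).

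Etv4 and Etv5, transcription factors of the ETS family that act downstream of receptor kinases, moved in opposite directions. Etv4 stood at 3.23, 4.49, 4.02 and 3.19 CPM at day 14 and at 0.881, 1.93, 1.35 and 1.03 CPM in vehicle lungs (−1.51, SE 0.26, adjusted p = 0.00436). Etv5, which is also a gene of alveolar type 2 cells, rose by 0.42 (SE 0.11, adjusted p = 0.0265), a call that ended without any 1 of day 14 mice 1 to 3 or vehicle mouse 1 or 4. Of the EGF receptor ligands, Hbegf fell by 0.41 (SE 0.07, adjusted p = 0.00486), and Ereg by 1.72 with a call that ended without day 14 mouse 1 or 3 or vehicle mouse 1, 3 or 4.

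Of 46 Wnt genes 8 were called lower (17.4%, against 6.51% of all genes) and 2 higher (4.35%, against 3.79%). The ligands Wnt6 (−1.32) and Wnt10a (−1.73) were at or below 1.88 CPM in all 8 libraries and lost their calls without day 14 mouse 3 or vehicle mouse 1 or 3, and Wnt10a also without day 14 mouse 1 or 2 or vehicle mouse 4. Fzd7, a Wnt receptor, went from 48.2, 47.4, 50.2 and 55.9 CPM to 66.3, 68.5, 58.8 and 68.1 CPM (0.38, SE 0.07, adjusted p = 0.00843). Axin2, a target that damps the pathway, stood at 21.0 to 28.5 CPM and then at 29.4 to 30.4 CPM (0.33, SE 0.09, adjusted p = 0.0339), and its call ended without any 1 library except day 14 mouse 4.

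Of 28 VEGF and angiopoietin genes 4 were called higher (14.3%, against 3.79% of all genes) and 0 lower. Angpt1, the ligand that steadies vessels, went from 71.2, 67.5, 71.4 and 78.4 CPM to 93.3, 83.8, 98.8 and 92.9 CPM (0.35, SE 0.07, adjusted p = 0.00938). Angpt2, its antagonist (0.67), Esm1, a gene of endothelial tip cells (1.05), and Vegfa (0.34) also rose. Angpt2 lost its call without day 14 mouse 3 or vehicle mouse 1, Esm1 without day 14 mouse 1 or 3, and Vegfa without vehicle mouse 1. The endothelial marker Pecam1 stood at 615 to 685 CPM and then at 638 to 775 CPM (0.12, SE 0.09, adjusted p = 0.402).

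Of 33 genes of injured, transitional epithelium 17 were called lower and 0 higher, with a median of −0.38, and 11 of the 17 held in all 8 leave-one-out fits. Krt8, a keratin of simple epithelium raised in that state, stood at 272, 297, 298 and 256 CPM at day 14 and at 179, 221, 178 and 215 CPM in vehicle lungs (−0.50, SE 0.09, adjusted p = 0.00629). Sfn, a checkpoint protein of epithelium, went from 36.5, 41.7, 44.4 and 32.9 CPM to 17.0, 23.6, 15.5 and 20.3 CPM (−1.03, SE 0.19, adjusted p = 0.00731). Neither overlapped between groups. Gdf15, a stress hormone induced by p53, fell by 0.90 (SE 0.13, adjusted p = 0.00232), Sprr1a, a squamous envelope gene, by 1.00 and Krt7 by 0.43.

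Among 30 genes of the p53 response and senescence 9 were called lower and 3 higher. With Cdkn1a and Gdf15, Tnfrsf10b, a death receptor, fell by 0.65 and Sesn2, a stress-induced inhibitor of growth signalling, by 0.59. Xpc, a DNA damage sensor of excision repair, went from 34.9, 36.2, 34.7 and 36.2 CPM to 47.8, 42.1, 47.2 and 46.5 CPM (0.37, SE 0.08, adjusted p = 0.00932). Rrm2b (0.41) and Pltp (0.24) were the other rises, Rrm2b without a call when day 14 mouse 3 or vehicle mouse 1 or 3 was left out, and Pltp when any 1 of day 14 mice 1, 3 and 4 or vehicle mice 1, 3 and 4 was.

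Of 32 alveolar type 2 genes 8 were called higher (25%, against 3.79% of all genes) and 2 lower (6.25%, against 6.51%), with a median of 0.20. Acoxl was the member whose call held in all 8 leave-one-out fits. It stood at 21.6, 20.7, 22.6 and 25.4 CPM at day 14 and at 48.0, 34.0, 35.5 and 42.2 CPM in vehicle lungs (0.82, SE 0.15, adjusted p = 0.00602). Sftpc was not called (0.23, SE 0.08, adjusted p = 0.0833). Lcn2, an iron-binding defence protein, and Ctsh, a protease that processes surfactant protein, fell by 0.78 and 0.57, and lost their calls without day 14 mouse 1 or 3 or vehicle mouse 1 or 3, and Ctsh also without day 14 mouse 2. For type 1 cells, 2 of 28 were called higher (7.14%, against 3.79% of all genes) and 5 lower (17.9%, against 6.51%). Pdpn, a surface protein of type 1 and lymphatic cells, fell by 0.40 (SE 0.08, adjusted p = 0.00698), and Akap5, a kinase anchor, rose by 0.46 (SE 0.09, adjusted p = 0.00813). Krt7 and Vegfa, given with other lists, were also among these calls. The others, Ndnf (−0.48), the water channel Aqp5 (−0.28) and Tspan8 (−0.19), ended without day 14 mouse 3 or vehicle mouse 1, 2 or 3, and each also without 2 of the other day 14 mice. Ager, the most used type 1 marker, stood at 1670 to 1940 CPM and then at 1690 to 1750 CPM (−0.09, SE 0.06, adjusted p = 0.393).

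Airway secretory genes moved in both directions. Of 29 secretory genes 6 were called lower and 3 higher. Muc5ac, the mucin of goblet cells, stood at 6.97, 5.01, 6.89 and 4.13 CPM at day 14 and at 3.35, 4.28, 2.89 and 3.01 CPM in vehicle lungs. The lowest day 14 mouse was below the highest vehicle mouse, and the call (−0.77, SE 0.18, adjusted p = 0.0196) ended without day 14 mouse 1 or 3 or vehicle mouse 1 or 3. Cyp2f2, a cytochrome of club cells, went from 1190, 1110, 1200 and 1240 CPM to 1620, 1470, 1640 and 1570 CPM (0.41, SE 0.08, adjusted p = 0.00835). The other rise, of the sulfotransferase Sult1d1 (0.66), ended when any 1 of day 14 mice 2 to 4 or vehicle mice 1, 3 and 4 was left out. Scgb1a1, the main secretion of club cells, was not called (0.15, SE 0.09, adjusted p = 0.295). Of 40 genes of motile cilia 1 was called, Tppp3, a tubulin-binding protein (0.42, SE 0.08, adjusted p = 0.00741), and 34 had a positive fold change. The 1 call was 2.5% of the cilia list, against 3.79% of all genes called higher. Foxj1, the master regulator of these cilia, stood at 69.8, 62.6, 76.5 and 61.8 CPM at day 14 and at 61.0, 53.1, 61.4 and 62.0 CPM in vehicle lungs and was not called (−0.19, SE 0.09, adjusted p = 0.196).

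Among 29 xenobiotic enzymes 7 were called higher and 0 lower (24.1% called higher, against 3.79% of all genes), with a median of 0.20. Cyp1a1, the enzyme induced through the aryl hydrocarbon receptor, stood at 1.72, 1.32, 1.97 and 2.53 CPM at day 14 and at 10.4, 2.74, 7.18 and 11.6 CPM in vehicle lungs. Vehicle mouse 2 was close to the day 14 mice (2.08, SE 0.48, adjusted p = 0.0214), and the call ended without day 14 mouse 1 or 3 or vehicle mouse 1. Aox3, an aldehyde oxidase, went from 101, 69.1, 87.3 and 102 CPM to 137, 120, 131 and 127 CPM (0.52, SE 0.11, adjusted p = 0.0103), and it is the remaining rise of the secretory list.

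Of 30 genes of Spp1-expressing macrophages 15 were called lower and 1 higher, with a median of −0.42. Of 30 interstitial macrophage genes 9 were called lower and 0 higher. The lower calls held in all 8 leave-one-out fits for 5 of the 15 and for 4 of the 9. C1qb, a chain of complement C1q, stood at 155, 180, 175 and 135 CPM at day 14 and at 68.0, 96.5, 85.9 and 94.5 CPM in vehicle lungs (−0.90, SE 0.19, adjusted p = 0.0133). C1qa and C1qc, the partner chains, fell by 0.81 and 0.82 and lost their calls without day 14 mouse 3 or vehicle mouse 1, and C1qc also without day 14 mouse 1 or 2 or vehicle mouse 2 or 3. Spp1, osteopontin, went from 906, 1050, 1280 and 997 CPM to 370, 671, 546 and 614 CPM (−0.95, SE 0.23, adjusted p = 0.0276), with a call that ended without day 14 mouse 2 or 3 or vehicle mouse 1 or 3. The rise in that list was of Cd36, a fatty acid transporter that endothelium also expresses (0.31, SE 0.07, adjusted p = 0.0112). In the type 2 response 6 of 27 genes were called lower and 0 higher. Beside Retnla, the interleukin 4 receptor chain Il4ra fell by 0.48 (SE 0.09, adjusted p = 0.00784), and Arg1, arginase 1, by 1.23 with a call that ended without day 14 mouse 3 or vehicle mouse 1 or 3. Marco, a scavenger receptor of macrophages, stood at 8.50, 10.7, 8.05 and 5.54 CPM at day 14 and at 3.03, 4.82, 3.35 and 3.5 CPM in vehicle lungs. The groups did not overlap, yet it was not called (−1.15, SE 0.44, adjusted p = 0.116), and without the nanoparticle libraries in the fit it was (adjusted p = 0.00575). Of 29 alveolar macrophage genes 4 were called lower (13.8%, against 6.51% of all genes) and 2 higher (6.9%, against 3.79%). Fold changes were negative for 25 of the 29, and the median was −0.26. The level of that list was higher in every day 14 mouse than in every vehicle mouse, and Ear1, given above, was among the rises. The alveolar macrophage marker Siglecf was at 13.4 to 17.9 CPM and then at 12.5 to 14.6 CPM (−0.19, SE 0.14, adjusted p = 0.416). Ptprc, the leukocyte marker CD45, was not called either (0.17, SE 0.08, adjusted p = 0.176).

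Of 51 tested lysosomal genes 26 were called lower and 0 higher, 47 had a negative fold change, and the median was −0.28. The call held in all 8 leave-one-out fits for 11 of the 26. Ctss, a cathepsin of antigen-presenting cells, stood at 829, 751, 866 and 815 CPM at day 14 and at 403, 558, 539 and 595 CPM in vehicle lungs (−0.64, SE 0.115, adjusted p = 0.0053). Ctsd, the main aspartic cathepsin, went from 2100, 1870, 2130 and 1970 CPM to 1010, 1410, 1310 and 1450 CPM (−0.64, SE 0.14, adjusted p = 0.0139). Vehicle mouse 1 was lowest for both. Among 30 subunits and regulators of the proton pump that acidifies lysosomes, 6 were called lower (20%, against 6.51% of all genes). The 1 called higher was 3.33% of the list, against 3.79% of all genes. Of the 6 falls 1 kept its call in all 8 leave-one-out fits. It was that of Atp6v0e, a membrane subunit, which fell by 0.30 (SE 0.05, adjusted p = 0.00386). Atp6v1c2, a subunit form of few tissues including lung, went from 28.3, 28.4, 23.3 and 27.6 CPM to 43.0, 42.0, 36.4 and 38.5 CPM (0.57, SE 0.08, adjusted p = 0.00194).

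Of 34 chemokines 11 were called lower and 1 higher, 9 had positive fold changes, and 9 of the 11 held in all 8 leave-one-out fits. Ccl12, a ligand of the monocyte receptor CCR2, stood at 3.14, 1.88, 2.87 and 2.32 CPM at day 14 and at 0.67, 0.663, 0.797 and 1.06 CPM in vehicle lungs (−1.68, SE 0.255, adjusted p = 0.00275). Ccl7 (−1.48) and Ccl2 (−1.18), ligands of the same receptor, fell too, Ccl2 with a call that ended without day 14 mouse 3 or vehicle mouse 1 or 3. Cxcl10, induced by interferons, went from 6.73, 7.58, 7.01 and 5.90 CPM to 2.19, 3.01, 2.97 and 2.71 CPM (−1.32, SE 0.18, adjusted p = 0.00181). Ccl8 fell by 1.00 on the log2 scale, Cxcl9 by 0.93 and Cxcl13, which draws B cells, by 0.65. The rise was of Cx3cl1, fractalkine (0.36), a call lost without day 14 mouse 3. Il1b, interleukin 1 beta, varied from 2.51 to 16.1 CPM within day 14 and from 4.10 to 10.1 CPM among vehicle mice and was not called (−0.15, SE 0.605, adjusted p = 0.9).

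Of 43 type I interferon genes 8 were called lower and 0 higher, with a median of −0.20, and 1 of the 8 kept its call in all 8 leave-one-out fits. That gene was Ifit1, an RNA-binding antiviral protein, at 42.0, 38.6, 40.6 and 38.1 CPM and then at 21.9, 22.6, 27.3 and 24.6 CPM (−0.72, SE 0.12, adjusted p = 0.00437). The core of the interferon response element, searched as GAAANNGAA on both strands, occurred in 18 of 31 promoters of the list (58.1%) and in 7.49% of all promoters. It occurred in 7 of the 7 called genes with a promoter entry. The promoter of Ifit1, where 3 matches lie at 109, 103 and 84 bases before the start and the first 2 overlap, is shown from 150 before to 29 after the start with the matches in capitals.
Ifit1 (chr19:34640739-34640918, plus strand): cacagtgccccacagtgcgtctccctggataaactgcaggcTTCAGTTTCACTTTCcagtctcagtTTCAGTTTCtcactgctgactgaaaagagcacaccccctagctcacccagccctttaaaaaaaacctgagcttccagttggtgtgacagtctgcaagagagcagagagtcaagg

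Other motifs were searched in the same way in 4 lists. The genes called lower are counted here only where they had a promoter entry, so they are fewer than in some of the lists. The lysosomal E-box TCACGTGA occurred in 3 of 41 lysosome promoters (7.32%, against 1.69% of all) and in 2 of the 22 called lower. The amino acid response core TGATGNAA occurred in 9 of 29 promoters of the ATF4 response (31.0%, against 2.35%) and in 0 of the 5 called lower. In 17 promoters of the glucocorticoid and metal list the metal response forms TGCGCNC and TGCACNC each occurred in 5 (29.4%), against 25.2% and 13% of all. In 17 circadian promoters the E-box CACGTG occurred in 5 (29.4%, against 9.54%) and the D-box TTATGTAA in 1 (5.88%, against 0.617%), the D-box in 0 of the 2 called lower.

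Of 32 coagulation genes 10 were called lower and 0 higher, 8 had positive fold changes, and 3 of the 10 calls held in all 8 leave-one-out fits. A2m, alpha-2-macroglobulin, a trap for proteases, stood at 1.96, 1.28, 1.94 and 1.52 CPM at day 14 and at 0.846, 0.331, 0.467 and 0.365 CPM in vehicle lungs (−1.76, SE 0.37, adjusted p = 0.0115). F10, coagulation factor X, which macrophages also make, fell by 0.85, a call that ended without day 14 mouse 1 or 3 or vehicle mouse 1, 2 or 3. Thbs1, thrombospondin 1, fell by 0.93 and lost its call without day 14 mouse 3. B and plasma cell genes had the highest median of the lists, 0.43, with 1 of 33 called higher (Irf4, 0.39) and 1 lower (Cxcl13). Each call was 3.03% of that list, against 3.79% of all genes called higher and 6.51% called lower. The level of that list ranged from −0.61 to 0.10 within day 14 and from −0.22 to 0.41 among vehicle mice, so the groups overlapped. Irf4 lost its call without day 14 mouse 1 or 3 or vehicle mouse 1.

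Of 36 genes of glycolysis and hypoxia 8 were called lower and 0 higher. Gapdh, a glycolytic enzyme often used as a reference gene, stood at 643, 701, 663 and 581 CPM at day 14 and at 425, 474, 453 and 497 CPM in vehicle lungs (−0.49, SE 0.08, adjusted p = 0.00386). Eno1, enolase, fell by 0.44 (SE 0.09, adjusted p = 0.0108). Of 33 genes of the ATF4 response, which holds genes of amino acid synthesis and transport, one-carbon metabolism and stress, 6 were called lower and 1 higher. Psat1, a serine synthesis enzyme, went from 28.1, 26.2, 28.1 and 25.9 CPM to 15.5, 19.4, 17.9 and 17.6 CPM (−0.62, SE 0.07, adjusted p = 0.00151), and Mthfd1l, of mitochondrial folate metabolism, fell by 0.72. The rise in that list was of the lipoprotein receptor Vldlr (0.34). In the secretory pathway 8 of 33 genes were called lower and 0 higher, and 1 of the 8 calls held in all 8 leave-one-out fits. That call was of Ssr2, a subunit of the translocon-associated complex (−0.31, SE 0.06, adjusted p = 0.00911).

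Of 38 antioxidant genes of the NRF2 pathway 5 were called lower (13.2%, against 6.51% of all genes) and 2 higher (5.26%, against 3.79%), and 1 call in each direction held in all 8 leave-one-out fits. Nfe2l2, which encodes NRF2 itself, stood at 233, 207, 256 and 253 CPM at day 14 and at 176, 180, 186 and 201 CPM in vehicle lungs (−0.35, SE 0.07, adjusted p = 0.0108). Cat, catalase, went from 210, 194, 203 and 232 CPM to 273, 251, 273 and 280 CPM (0.36, SE 0.08, adjusted p = 0.0108). The groups of both genes were apart. The other calls were Srxn1 (−0.37), the heme oxygenase Hmox1 (−0.33), Prdx1 (−0.24) and ferritin light chain Ftl1 (−0.38) on the lower side and the glutathione transferase Gstm1 (0.40) on the higher side. Each of these 5 lost its call without vehicle mouse 1, all but Srxn1 also without day 14 mouse 3 or vehicle mouse 3, and Prdx1, Ftl1 and Gstm1 without day 14 mouse 1.

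Of 39 fatty acid genes 5 were called higher (12.8%, against 3.79% of all genes) and 1 lower (2.56%, against 6.51%). Acadm, an enzyme of beta-oxidation (0.25), Cd36 and the thioesterases Acot1 (0.51) and Acot2 (0.36) were among the rises. Acot1 and Acot2 are close copies whose reads may be shared, and their calls ended when any 1 of day 14 mice 1, 3 and 4 or vehicle mice 1 and 2 was left out, Acot1 also without day 14 mouse 2 and Acot2 without vehicle mouse 3 or 4. Ucp2, a mitochondrial carrier, fell by 0.42 (SE 0.07, adjusted p = 0.0031). Ch25h, which makes 25-hydroxycholesterol, stood at 16.0, 18.6, 17.7 and 11.8 CPM and then at 6.24, 6.48, 6.63 and 5.29 CPM (−1.38, SE 0.23, adjusted p = 0.00427), and Insig1, a sensor of sterols, rose by 0.42.

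Ribosomal protein genes shifted little. Of 78 tested 3 were called lower (3.85%, against 6.51% of all genes) and 0 higher, while 72 had a negative fold change with a median of −0.12. The 3, Rpl41 (−0.37), Rps2 (−0.28) and Rpl15 (−0.22), kept their calls only without day 14 mouse 4 among the leave-one-out fits, and such genes have many processed copies that may share reads. The metallothioneins Mt1 (−0.82, SE 0.16, adjusted p = 0.0102) and Mt2 (−1.08), which bind zinc and are induced by stress and glucocorticoids, fell, and Mt2 lost its call without day 14 mouse 3 or vehicle mouse 1. They belong to a list of 21 tested genes that glucocorticoids or metals induce, of which 4 were called lower and 0 higher, 18 had negative fold changes and the median was −0.78. The other calls were of Lcn2, given above, and of the kinase Sgk1 (−0.35), which lost its call without day 14 mouse 1 or 3 or vehicle mouse 1 or 3. Only the call of Mt1 held in all 8 leave-one-out fits.

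Some circadian and immediate early genes were called as well. Of 21 circadian genes 4 were called lower and 1 higher. Nfil3, a clock output repressor, stood at 10.6, 8.97, 10.6 and 8.04 CPM at day 14 and at 5.39, 5.18, 4.67 and 5.02 CPM in vehicle lungs (−0.92, SE 0.17, adjusted p = 0.00596). Cry1 (−0.88), Wee1 (−0.82), Bhlhe40 (−0.39) and Npas2 (1.01) were the others, and each lost its call without day 14 mouse 3 or vehicle mouse 1 or 2. Some of them also lost it without day 14 mouse 1 or 2 or vehicle mouse 3 or 4. The labels give no hour of collection, and its part in these values was not tested. Of 28 immediate early genes 4 were called lower and 0 higher, with a median of −0.62 and 25 negative fold changes, and 0 of the 4 held in all 8 leave-one-out fits. They were Egr2 (−0.96), Atf3 (−0.85), Nr4a2 (−0.61) and Sik1 (−0.40), transcription factors and a kinase switched on soon after a stimulus. All lost their calls without day 14 mouse 3, and each without 1 or more of the other 7 libraries.

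Heart muscle genes mark pulmonary vein muscle and attached heart tissue. Of 23 tested 3 were called higher (13%, against 3.79% of all genes) and 0 lower, with a median of 0.37. Myh7, a myosin of heart and slow muscle, stood at 16.0, 22.2, 14.0 and 18.7 CPM at day 14 and at 24.2, 32.2, 26.3 and 33.2 CPM in vehicle lungs (0.71, SE 0.14, adjusted p = 0.00954). The other rises, of Csrp3 (0.75) and Cox6a2 (0.51), ended without day 14 mouse 3 or vehicle mouse 1 or 3, Csrp3 also without day 14 mouse 1 and Cox6a2 without day 14 mouse 2 or 4 or vehicle mouse 4. The 4 fixed heart markers Myh6, Tnnt2, Tnni3 and Myl7 summed to 192 to 223 CPM at day 14 and 168 to 339 CPM in vehicle lungs, and 0 of the 4 was called. In vehicle mice 1 to 4, whose Myh7 values are given above, the level of the heart muscle list was 0.35, −0.48, 0.50 and 0.11. In day 14 mice 1 to 4 that level was −0.31, 0.02, −0.12 and 0.02, so the groups overlapped. The part of heart tissue in the change of Myh7 was not tested.

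**Figure D4:**
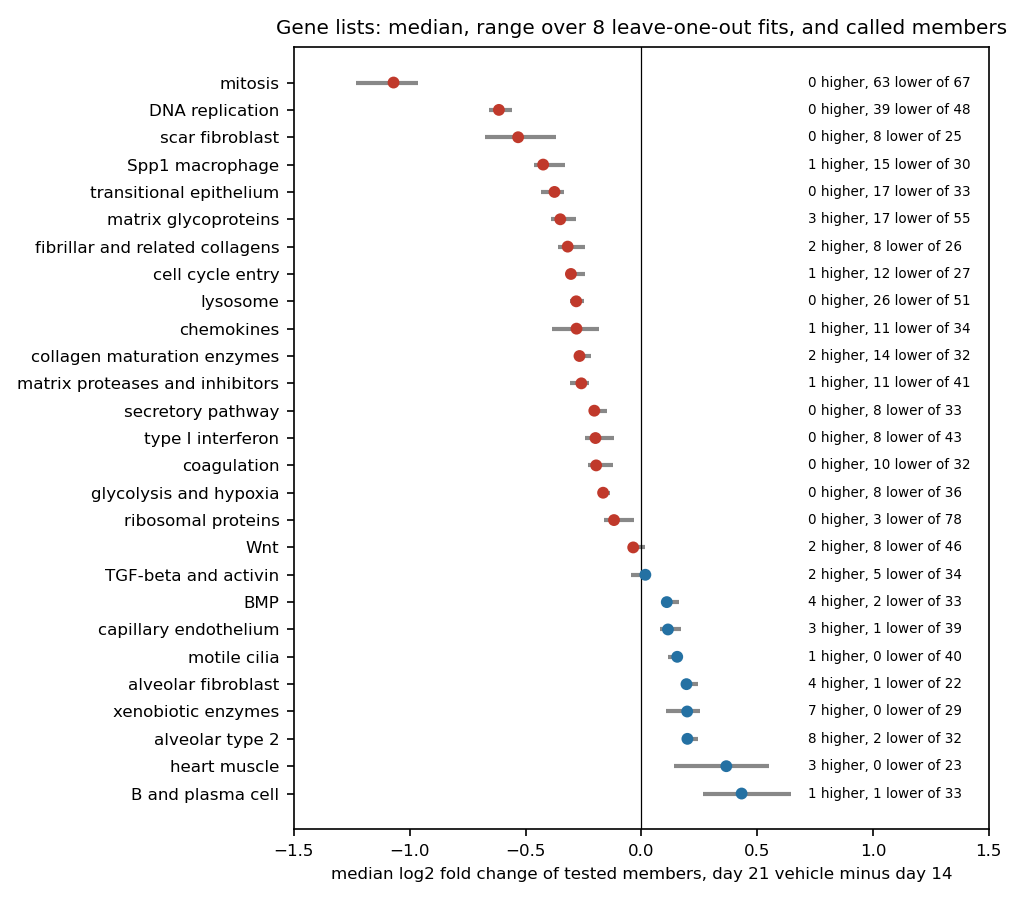
Median log2 fold change (x axis, day 21 vehicle minus day 14) of the tested members of 27 gene lists, with a grey bar for the range of that median when each of the 8 libraries was left out and, at the right, the members called in each direction. Mitosis (−1.07) and DNA replication (−0.62) lie farthest to the left, and the bars of Wnt and of TGF-beta and activin cross 0.

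By library, the mitosis list lay between 0.65 and 0.78 above its 12-library mean in the day 14 mice on a log2 scale and at −0.58, 0.08, −0.26 and −0.27 in vehicle mice 1 to 4. Vehicle mouse 1 was the lowest of the vehicle group in that list and in the lysosome and Spp1 macrophage lists, and vehicle mouse 2 was the highest in mitosis and Spp1 macrophage genes. Vehicle mice 1 and 2 were at 0.35 and −0.48 for heart muscle genes. List levels were higher in all 4 day 14 mice than in all 4 vehicle mice for 23 of the 66 lists, among them mitosis, DNA replication, transitional epithelium, lysosome and coagulation. They were higher in all 4 vehicle mice for 3 lists, which were motile cilia, pericyte and mitochondrially encoded respiratory genes, and overlapped for 40. Some gaps were slight. For motile cilia the highest day 14 level was −0.0155 and the lowest vehicle level −0.0085. For classical monocytes, among the 23, the lowest day 14 level was −0.0211 and the highest vehicle level −0.0313.

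**Figure D5:**
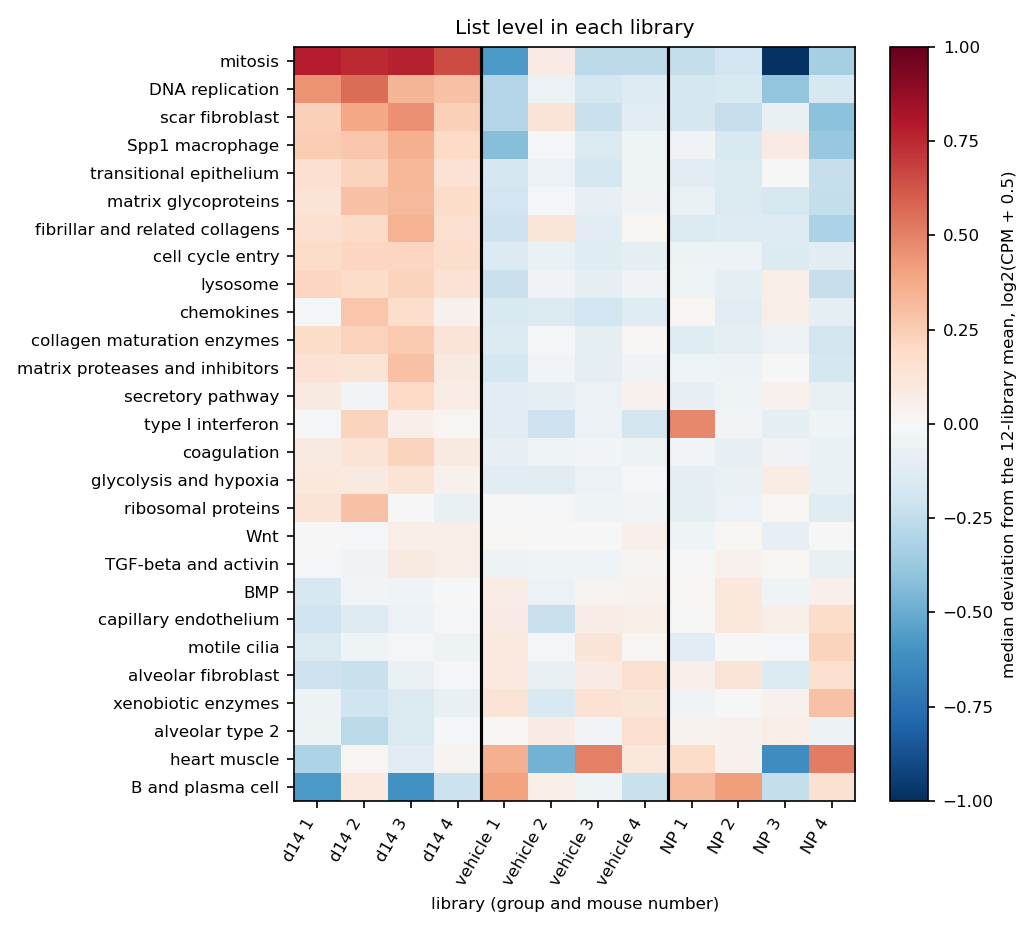
Level of 27 gene lists (rows) in the 12 libraries (columns, grouped as day 14, day 21 vehicle and day 21 nanoparticle), given as the median deviation of the members from their mean over the libraries in log2(CPM + 0.5), red above and blue below. The 4 day 14 columns are red for the upper lists, and vehicle mouse 2 is the palest vehicle column in the mitosis row at 0.08.

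The nanoparticle-treated lungs of the same day served to place the vehicle values. Between them and the vehicle lungs edgeR called 0 of 17909 genes (0%), with 762 genes at an unadjusted p under 0.05, and DESeq2 called 18. Nanoparticle mouse 3 stood apart on the second principal component (14.3% of the variance), at 49.3 against −12.2 to 5.31 for the other libraries. Its neutrophil list level was 1.96, against −0.39 to 0.13 in vehicle mice. Without that mouse edgeR again called 0 genes in this comparison. The nanoparticle group stood at 45.2 ± 6.43 CPM for Retnla, 5.11 ± 1.49 CPM for Cdk1, 458 ± 62.7 CPM for Col1a1 and 45.1 ± 14.2 CPM for Igfbp3 (mean ± SD, n = 4). These values lay near those of the vehicle lungs given above. The nanoparticle lungs were not tested against day 14 here. Any change of the 2 day 21 groups from day 14 would rest on the same 4 day 14 lungs, so likeness of such changes is not independent evidence.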

How the data were processed

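RNA was extracted from whole lung lobes, and polyA libraries were sequenced with paired reads of 151 bp, per the labels' protocols. Reads were handled with RSEM 1.3.3, STAR 2.7.8a, cutadapt 4.8, MultiQC 1.20 and FastQC 0.11.8 on GRCm38, per the submitters' processing notes. The strand setting and annotation release are not given in the sources used here, so overlapping genes on opposite strands cannot be told apart. Expected counts, estimated per gene and library by the authors, were deposited as whole numbers. TPM values were deposited by the authors in a second table, scaled to the same total per library, and served for 1 alternative only. All 12 columns were matched to mice by the library names in the labels, with 0 columns unmatched.

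The expected counts of all 12 libraries entered 1 fit in edgeR 4.0.16 (R 4.3.3, statmod 1.5.0) with a group term, TMM scaling, filterByExpr (minimum count 10, minimum total 15) and robust quasi-likelihood dispersion. The contrast vehicle minus day 14 was two-sided, with Benjamini-Hochberg adjustment over 17909 genes, and standard errors come from the same test. CPM was computed from the counts and the library sizes after TMM scaling, and levels are compared within a gene, never between genes. The fit was tested on simulated data. DESeq2 1.42.0 and limma 3.58.1 on log2(TPM + 0.5) served as alternatives.

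The comparison, the genes and the 66 gene lists (2117 entries, 2116 matched to a symbol) were chosen with earlier results of these data known. The text names the 15 largest rises and falls (called, average log2 CPM of at least 1, no overlap between groups, called in all 8 leave-one-out fits, no predicted, clone-named or receptor segment genes), the 5 of smallest p each way, up to 3 called members per list and direction, and 23 reference genes. Some genes that the rule names are not reported here. Limch1, Fstl3, Igfbp7, Acadm, Sik1, Bhlhe40, Aqp5, Tspan8, Hmox1, Prdx1, Sgk1 and Il4ra lie outside this rule and were named after their values were seen, most as members of lists with 5 or fewer calls in a direction. Lists are described by counts and medians, with no list test. Of the 66 lists, those not described are kept in the counts of list levels. Coordinates are from GENCODE M21 and promoters from RefSeq.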

Additional observations from a re-analysis of the deposited data

Results flagged for a closer look

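In 14 of 384 groups of 4 values checked among the named genes, 1 library stood apart from the other 3 of its group by Dixon's test at the 95% level. Chance flags about 1 in 20 groups. At day 14, mouse 4 was high for Lncppara (2.82 CPM, others 1.86 to 1.92) and low for H2ax (21.6 CPM, others 25.1 to 25.3) and Krt7 (428 CPM, others 499 to 502). Day 14 mouse 3 was high for Itga5 (118 CPM, others 93.3 to 94.7) and low for Atp6v1c2 (23.3 CPM, others 27.6 to 28.4), and day 14 mouse 2 was low for Limch1 (521 CPM, others 671 to 689). Vehicle mouse 2 was high for Bmp1 (137 CPM, others 99.0 to 103) and Tnfrsf10b (10.9 CPM, others 9.23 to 9.30) and low for Fgfr1 (83.5 CPM, others 86.8 to 87.1) and Foxj1 (53.1 CPM, others 61.0 to 62.0). Vehicle mouse 3 was low for Tmem121b (4.37 CPM, others 5.38 to 5.57) and Atf3 (13.1 CPM, others 15.6 to 15.9). Vehicle mouse 4 was high for Tgfb1 (82.5 CPM, others 78.4 to 79.0) and Srxn1 (37.6 CPM, others 33.7 to 34.2).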

How the results depend on the processing

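Of 679 genes higher and 1166 lower in vehicle lungs, leaving out 1 of the 8 libraries gave 212 to 834 higher and 492 to 1188 lower. The lowest counts came without day 14 mouse 3 (212 and 507), vehicle mouse 1 (252 and 492), vehicle mouse 3 (311 and 555) and day 14 mouse 1 (324 and 688). DESeq2 called 1146 and 1526, and limma on TPM 332 and 700. Without the nanoparticle libraries the counts were 654 and 1151, with the mouse number as a replicate block 622 and 1051, with RLE scaling 723 and 1068, with total counts only 792 and 977, with no filter 585 and 870 and with a filter of 1 CPM in 4 libraries 854 and 1078. Mice with the same number did not deviate together (correlations −0.0372 to 0.148), so the block does not pair them. Other scalings moved the median of all genes by less than 0.1, and 63 of the 66 list medians kept their sign in both. In every setting 55 kept it. The nanoparticle comparison, tried under settings added after the data were seen, gave 0 calls in each edgeR fit and 18 in DESeq2. Of 192 named genes 181 were called and 104 of these kept the call in every setting. Leaving out 1 library moved the log2 fold change of Il1b from −0.463 to 0.506, with a reversal without day 14 mouse 2 (0.506), vehicle mouse 2 (0.00507) or vehicle mouse 4 (0.033) and in limma on TPM (0.023), and that of Acta2 from −0.224 to 0.0435, with a reversal without day 14 mouse 2 (0.0435) and in limma on TPM (0.015), and neither was called. The cause of these differences was not tested.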
